A study of Mus musculus with 12 samples.

Results

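The genes described here code for the subunits of the mitochondrial respiratory chain and ATP synthase that are encoded in the nucleus. They were chosen by symbol: Ndufa, Ndufb, Ndufc, Ndufs and Ndufv genes with a number, Ndufab1, Sdha to Sdhd, Uqcr genes, Cox4 to Cox8 genes and Atp5 genes. Of 55228 symbols in the expression table, 97 matched, and 8 names that contain -ps were left out by the rule. This gave 89 genes, 41 for complex I, 4 for complex II, 8 for complex III, 19 for complex IV and 17 for complex V. The complex was assigned by symbol alone. Ndufa4 and Ndufa4l2, described below with the paralogs of complex IV, were therefore counted in complex I.

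RNA was measured in cultured regulatory T cells (Tregs) of NOD.Foxp3-GFP mice, 3 libraries in each of 4 groups. The Tregs were sorted from lymph nodes of 16 pooled mice as GFP+CD25+ cells, in 3 parts on separate machines, and each part was activated on its own, so the replicates were cultures of one pool and not animals, and a replicate number marks a shared sort. All cells were transduced on day 2 with a retroviral vector carrying the surface reporter Thy1.1, washed on day 4 and sorted as Thy1.1+ on day 9. EV Tregs held the empty vector and were then kept for 5 days without IL-2 (the EV no IL-2 group) or with soluble IL-2 (EV+IL-2). The 1G12t and 3A10t Tregs held a construct that tethers an orthoIL-2 variant, 1G12 or 3A10, to the orthogonal IL-2Rβ. They got no IL-2 after the wash on day 4, which removed the IL-2 of the earlier culture. The comparisons asked whether soluble or tethered IL-2 shifted the expression of these genes relative to cells left without the cytokine.

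Complexes I and II pass electrons from NADH and succinate to ubiquinone, complex III passes them on to cytochrome c, and complex IV reduces oxygen with them. Proton pumping by complexes I, III and IV drives complex V, which makes ATP. Complexes I, III, IV and V are mosaics, with a few catalytic or membrane subunits from mitochondrial DNA and all others from nuclear genes, while complex II is wholly nuclear. T cells build up respiratory capacity after activation, and Tregs are known for a strong reliance on oxidative phosphorylation.

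Levels are given as TPM, the share of a library's transcripts that come from a gene after division by transcript length, so they can be compared between genes. Libraries were brought to a common scale with median-of-ratios factors between 0.846 and 1.08, and fold changes are differences of log2(scaled TPM + 1), which understate the change of low genes. TPM keep no read counts, so the depth of the libraries is unknown and the spread over the 3 libraries is the only error given, which may be technical in part. A gene was called when limma, fitted over the 12 libraries to the 15043 genes that averaged 1 TPM or more, gave a Benjamini-Hochberg adjusted p under 0.05. Of the 89 genes, 83 reached that level.

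The EV+IL-2 libraries carried 30393, 32422 and 36239 genes above 0, and all other libraries between 37930 and 43285. The part of this difference between groups in the changes described here was not tested. All 6 Treg and T cell markers (Cd3e, Cd4, Foxp3, Il2ra, Ikzf2 and Ctla4) were present, with a summed level from 1612 TPM in a 3A10t library to 2264 TPM in an EV+IL-2 library. The 3 B cell markers summed to between 8.42 and 16.2 TPM, the 4 myeloid markers to between 0.295 and 3.07 TPM, and the 2 CD8 T cell markers to between 3.48 and 6.57 TPM. The Thy1 gene, whose transcript is close to that of the reporter, stood between 3141 and 3511 TPM in the EV libraries and between 183 and 263 TPM in the tether libraries, a difference that cannot be told apart from that of the constructs. The Treg and T cell sum was between 2244 and 2264 TPM in EV+IL-2 and between 1858 and 1960 TPM in EV no IL-2. The 6 markers did not move together, with log2 fold changes from −0.27 to 0.76, 4 above 0 and 2 below. Of them 1 was called higher and 0 lower (8.17% and 5.14% of all genes). The part of these markers in the changes described here was not tested.

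The genes were among the more abundant of these cells. Among the 79 protein-coding members tested, 77 had a mean of at least 50 TPM, and their median was 312 TPM. The highest was Atp5b, the catalytic β subunit of ATP synthase, at 973 TPM, followed by Uqcr11, a small accessory subunit of complex III, at 906 TPM, and Cox6a1, a regulatory subunit of complex IV, at 871 TPM. Complex I was led by the accessory subunits Ndufa1, at 714 TPM, Ndufa3, at 643 TPM, and Ndufb8, at 519 TPM. In complex III Uqcr10, another small subunit, and the core protein Uqcrc1 followed at 595 and 509 TPM, in complex IV Cox6b1 and Cox4i1 at 729 and 609.7 TPM, and in complex V the stalk subunits Atp5j and Atp5h at 683 and 626 TPM. The 4 complex II genes were close to each other, from Sdhd at 196 TPM to Sdhb at 311 TPM.

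Among the paralogs of complex IV, the broadly expressed form carried nearly all of the RNA. Cox4i1, the regulatory subunit of complex IV, averaged 529 ± 46.9 TPM in EV no IL-2 (SD, n = 3), whereas Cox4i2, its form of lung and hypoxic cells, stayed at or below 0.3 TPM in every library. Cox6a2, Cox8b and Cox8c, forms known from muscle or testis, stayed at or below 0.37 TPM beside Cox6a1 and Cox8a, and Ndufa4l2, the hypoxia-linked relative of Ndufa4, at or below 0.41 TPM. With Cox7b2, which reached 2.32 TPM in 1 library, these are the 6 genes not tested. Cox7a1, the muscle form, averaged 1.09 TPM over all libraries, against 254 ± 24.9 TPM for Cox7a2 in EV no IL-2. Atp5g1, Atp5g2 and Atp5g3 code for the same mature c subunit of the proton-conducting ring, and all were expressed, with EV no IL-2 means of 294 ± 15, 107 ± 10 and 517 ± 31.9 TPM (SD, n = 3). The symbols Cox6c2, Ndufa11b, Ndufb4c and Ndufs6b are annotated as processed pseudogenes, and since their reads can be split with the parent genes, their values are uncertain.

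Promoter sequence was examined because nuclear respiratory chain genes are known targets of NRF1, of ETS factors such as GABPA, and of YY1. RefSeq promoters on GRCm38.p6, from 250 bases before to 50 bases after a start site, were at hand for 68 of the 89 genes (73 promoters). On either strand, the letters GCGCNTGCG (NRF1) were found in 34.2% of them against 6.31% of all 32851 promoters, CCGGAAG (ETS) in 23.3% against 8.86%, and AANATGGCG (YY1) in 13.7% against 2.38%. Among the promoters of the other genes tested, which are expressed here, the shares were 13.7%, 18.7% and 5.15%, and at least 1 of the 3 was present in 58.9% of member promoters against 32.6%. These are matches of letters and not measured sites. The sequences shown are stretches before the start site that no annotated exon covers, for Cox5a, Atp5e and Sdhd, which rose with soluble IL-2, for Uqcrh, which the study named, and for Cox6a1, the most abundant complex IV gene and a holder of the NRF1 letters. They lie at chr9:57521112-57521231 (plus strand), chr2:174464106-174464225 (minus strand), chr9:50603850-50603909 (minus strand), chr4:116075072-116075191 (minus strand) and chr5:115348982-115349101 (minus strand) and read 5′ to 3′ towards the gene, with capitals for CTTCCGG, the reverse complement of the ETS letters, and for the NRF1 letters, on the reverse strand, in Cox6a1.
Cox5a: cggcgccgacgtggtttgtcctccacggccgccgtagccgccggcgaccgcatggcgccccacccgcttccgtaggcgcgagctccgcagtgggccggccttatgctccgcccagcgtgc
Atp5e: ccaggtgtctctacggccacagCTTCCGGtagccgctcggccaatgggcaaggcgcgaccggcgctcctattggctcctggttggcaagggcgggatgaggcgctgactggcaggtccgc
Sdhd: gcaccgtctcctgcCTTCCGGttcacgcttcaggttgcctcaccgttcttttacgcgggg
Uqcrh: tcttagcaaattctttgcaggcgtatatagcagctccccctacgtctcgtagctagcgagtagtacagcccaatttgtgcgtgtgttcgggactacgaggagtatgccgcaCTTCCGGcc
Cox6a1: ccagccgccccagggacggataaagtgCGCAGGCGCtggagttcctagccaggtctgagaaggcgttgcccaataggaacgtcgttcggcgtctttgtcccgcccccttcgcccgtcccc
The ETS letters begin 10 bases before the start site of Uqcrh, 46 before that of Sdhd and 102 before that of Atp5e, and the NRF1 letters 116 before that of Cox6a1. Sdhd and Cox6a1 held further matches outside the stretch shown, and Cox5a held none of the 3 motifs in its window. Cox6a1 was picked in part for its letters, so the stretches shown do not give a share of promoters with a motif. Genes with and without a motif overlapped in their changes. With soluble IL-2, the change had a median of 0.21, on the log2 scale, for the 24 genes tested whose promoter held the NRF1 letters (range −0.22 to 0.49) and of 0.24 for the 42 without (range −0.18 to 1.46). In 3A10t the medians were 0.28 and 0.25.

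**Figure D1:**
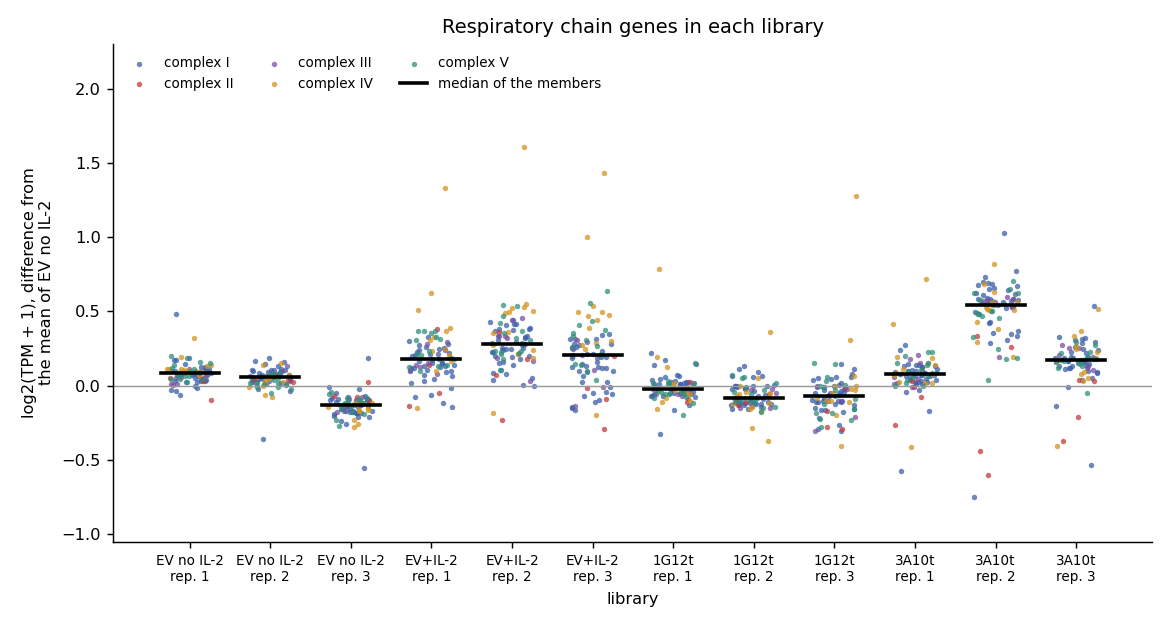
Difference of each of the 83 genes from its EV no IL-2 mean, in log2(TPM + 1), in each of the 12 libraries. Points are coloured by complex, and bars are medians. The medians lie between −0.13 and 0.09 in EV no IL-2 and between 0.18 and 0.28 in EV+IL-2. Those of 3A10t lie between 0.08 and 0.54.

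With soluble IL-2, respiratory chain genes stood slightly higher across most of the set, by most in complexes IV and V. The median log2 fold change of the 83 genes in EV+IL-2 against EV no IL-2 was 0.23, against −0.01 for all genes, and 75 of 83 had a value above 0 against 45.9% of all genes. In 53 of the 83 all 3 EV+IL-2 libraries lay above all 3 EV no IL-2 libraries, against 19.6% of all genes. With limma and Benjamini-Hochberg adjustment 10 genes rose and 0 fell, where 8.17% of all genes rose and 5.14% fell. The count of 10 is not far from that background share. At an unadjusted p under 0.05, 33 were higher and 0 lower (13.9% and 12.4% of all genes), and by the study's rule of an unadjusted p under 0.01 with a log2 fold change past 0.25, 17 were higher and 0 lower (8.99% of all genes higher and 6.12% lower). In bulk RNA, fewer cells of a type and less RNA per cell cannot be told apart.

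Complex IV held 5 of the 10 genes called and had a median log2 fold change of 0.33 over 14 genes. Cox5a, a heme-free subunit of the enzyme's matrix face, had 317, 312 and 276 TPM in the EV no IL-2 libraries and 430.5, 442 and 420.3 TPM in the EV+IL-2 libraries. The groups did not overlap, and the log2 fold change was 0.51 (SE 0.12, adjusted p = 0.0161). The study named Cox5a, Ndufa10 and Uqcrh from these same samples, so their values here are not independent evidence. It gave them as examples of metabolic genes, for which it reported a stronger enrichment in 3A10t, in contrast to EV+IL-2. Cox6c, another nuclear subunit, stood at 418, 403 and 344 TPM without and 505, 556 and 546 TPM with IL-2, again with no overlap (log2 fold change 0.47, limma adjusted p = 0.0162). Cox4i1 and Cox7a2 rose by 0.45 and 0.44 (limma adjusted p = 0.033 and 0.0254).

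The last complex IV gene called, Cox6b2, is the testis form of the subunit that Cox6b1 supplies elsewhere, and it was low in every library. It had 1.81, 1.33 and 1.27 TPM without IL-2 and 5.19, 6.48 and 5.62 TPM with IL-2, a log2 fold change of 1.46 (SE 0.34, limma adjusted p = 0.0161). Replicate 3 of 1G12t reached 4.94 TPM, close to the EV+IL-2 libraries, while the other two 1G12t libraries were at 1.21 and 1.01 TPM. Cox6b1 itself, at 677 ± 62.4 TPM without and 810.0 ± 9.17 TPM with IL-2 (SD, n = 3), differed by 0.26 and was not called (limma adjusted p = 0.189). The exception in complex IV was Cox7a2l, a factor that joins complexes III and IV into supercomplexes, with 303, 299.8 and 254 TPM without and 256, 250.1 and 249 TPM with IL-2 (log2 fold change −0.18, limma adjusted p = 0.372).

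In complex V all 17 genes had a log2 fold change above 0, with a median of 0.30, and 4 were called. Atp5e, the ε subunit of the central stalk, had 262, 239.9 and 188 TPM without and 294, 332 and 355 TPM with IL-2. Its EV no IL-2 libraries spread widely, with replicate 3 lowest, and still lay below all EV+IL-2 libraries (log2 fold change 0.51, SE 0.12, limma adjusted p = 0.0152). Atp5g3, one of the 3 c subunit genes, stood at 547, 521 and 484 TPM and 641, 640.3 and 651 TPM and rose by 0.32 (limma adjusted p = 0.0109). The other c subunit genes, Atp5g1 and Atp5g2, differed by 0.22 and 0.30 without being called (limma adjusted p = 0.275 and 0.0568). Atp5b rose by 0.30 and Atp5md, a small subunit of the membrane sector, by 0.49 (limma adjusted p = 0.0198 and 0.0186).

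Complex III lay between, with 8 of 8 genes above 0, a median of 0.24 and none called. Uqcrh, the hinge subunit that helps cytochrome c1 dock cytochrome c, had 424, 424 and 376 TPM without and 453, 463 and 464 TPM with IL-2, and its log2 fold change of 0.17 was not called (limma adjusted p = 0.286). The core proteins Uqcrc1 and Uqcrc2 differed by only 0.03 and 0.04.

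Complex I, with 40 genes tested, had a median of 0.20 and none called. Values ranged from −0.10 to 0.36. Ndufs7, the core subunit that binds the last iron-sulfur cluster before ubiquinone, had 419, 381 and 364 TPM without and 350.5, 388 and 345 TPM with IL-2, so the groups overlapped. The accessory subunit Ndufs5 had 139, 136 and 120.4 TPM and 166, 176 and 167 TPM, with no overlap (log2 fold change 0.36, limma adjusted p = 0.053). Ndufa10, an accessory subunit of the membrane arm, stood at 176, 183 and 175 TPM and 212, 212 and 202 TPM (log2 fold change 0.23, limma adjusted p = 0.279).

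Complex II showed the least shift, with a median of 0.04 over its 4 genes. Sdhd, which with Sdhc anchors the enzyme in the membrane and binds heme, had 206, 205 and 185 TPM without and 259, 255 and 228 TPM with IL-2 and rose by 0.31 (SE 0.09, limma adjusted p = 0.0483). The call was kept in 9 of the 24 alternatives and was lost when any of these 6 libraries was left out, with an adjusted p between 0.0505 and 0.185. Sdha, the flavoprotein that oxidizes succinate, went the other way without being called, from 259, 291 and 282 TPM to 252, 235 and 226 TPM (log2 fold change −0.22, limma adjusted p = 0.36). Every EV+IL-2 library was below every EV no IL-2 library for Sdha, the only member tested with that pattern (20.0% of all genes). Sdhb and Sdhc differed by 0.10 and −0.02.

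The number of calls with soluble IL-2 rested on single libraries. It was 1 without EV no IL-2 replicate 3 (5.51% of all genes), in which all but 2 of the 83 genes lay at or below the group mean and the median difference from it was −0.13, 4 without EV no IL-2 replicate 2 (6.09% of all genes), and 6, 2 and 3 without EV+IL-2 replicates 1, 2 and 3 (5.49%, 5.49% and 6.23%). It was 16 without 3A10t replicate 1 (9.77% of all genes) and 36 without 3A10t replicate 2 (10.8%), libraries that are not in the groups compared, and the median stayed between 0.16 and 0.27 in all of these fits.

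**Figure D2:**
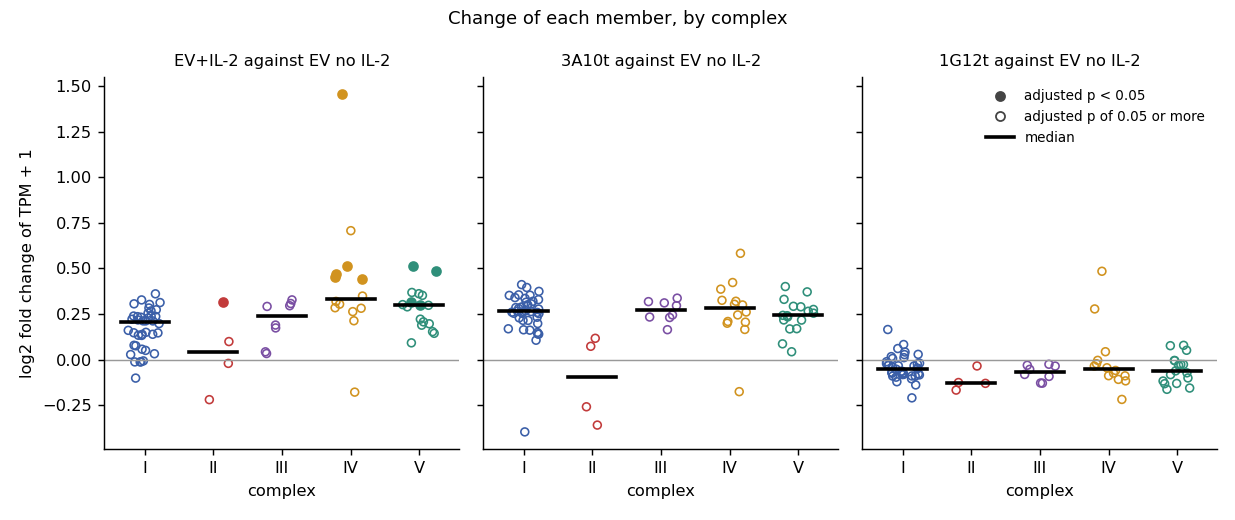
Log2 fold change of TPM + 1 of each gene tested against EV no IL-2, by complex, for EV+IL-2, 3A10t and 1G12t. Bars are medians, and filled points, with a limma adjusted p under 0.05, appear in the EV+IL-2 panel alone, 5 in complex IV, 4 in complex V and 1 in complex II, and the 3 comparisons share the EV no IL-2 libraries.

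In 3A10t most members stood slightly higher than in EV no IL-2, and no single gene was called. The members' median log2 difference from EV no IL-2 was 0.26, against 0.03 for all genes, and 79 of 83 genes had a value above 0 against 52.9% of all genes. With limma and Benjamini-Hochberg adjustment 0 rose and 0 fell, where 0.452% of all genes rose and 1.6% fell, and the lowest adjusted p of a member was 0.07. At an unadjusted p under 0.05, 35 were higher and 2 lower (10.9% and 15.1% of all genes), and by the study's rule 8 were higher and 1 lower, against 2.83% and 6.67% of all genes. In 29 of 83 genes all 3 3A10t libraries lay above all 3 EV no IL-2 libraries, against 13.3% of all genes.

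The 3A10t libraries differed among themselves. The median difference of the members from the EV no IL-2 mean was 0.08 in replicate 1, 0.54 in replicate 2 and 0.17 in replicate 3. The 3 EV+IL-2 libraries had 0.18, 0.28 and 0.21. The EV no IL-2 libraries themselves had 0.09, 0.06 and −0.13, so 3A10t replicate 1 lay within their range. Cox5a had 333, 486 and 379 TPM in the 3 3A10t libraries, all above the EV no IL-2 range (log2 fold change 0.39, SE 0.12, limma adjusted p = 0.0993). Ndufa10 had 195, 295 and 223 TPM and Uqcrh 452, 589 and 486 TPM, and for both replicate 2 was far above the other two and all 3 lay above EV no IL-2 (log2 fold change 0.40 and 0.31, limma adjusted p = 0.0989 and 0.0948). The medians of complexes I, III, IV and V were close, at 0.26, 0.27, 0.28 and 0.24, and that of complex II was −0.09.

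Transcript length moved with this shift. The length of a gene here is the median over its annotated transcripts of the basic set, which need not be the form expressed. Members are short by this measure, with a median of 711 bases over the 82 tested genes with a length. For all genes tested it was 2071 bases. In 3A10t the 1670 other genes of 500 to 1000 bases had a median log2 fold change of 0.20, with 79.2% above 0, against 0.26 for the 39 members of that length, and the 4633 genes over 3000 bases had a median of −0.17. With soluble IL-2 the same classes had medians of 0.02, 0.24 and −0.03. In replicate 2 of 3A10t alone, all genes of 500 to 1000 bases had a median difference from the EV no IL-2 mean of 0.41 and those over 3000 bases one of −0.28, on the log2 scale. After a correction for the trend on length, the members' median in 3A10t was 0.11, with 70 of 82 above 0 and 0 called, while with soluble IL-2 it was 0.20, with 75 of 82 above 0 and 25 called (10.4% of all genes higher). The part of transcript length in the 3A10t shift was not tested beyond this correction.

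**Figure D3:**
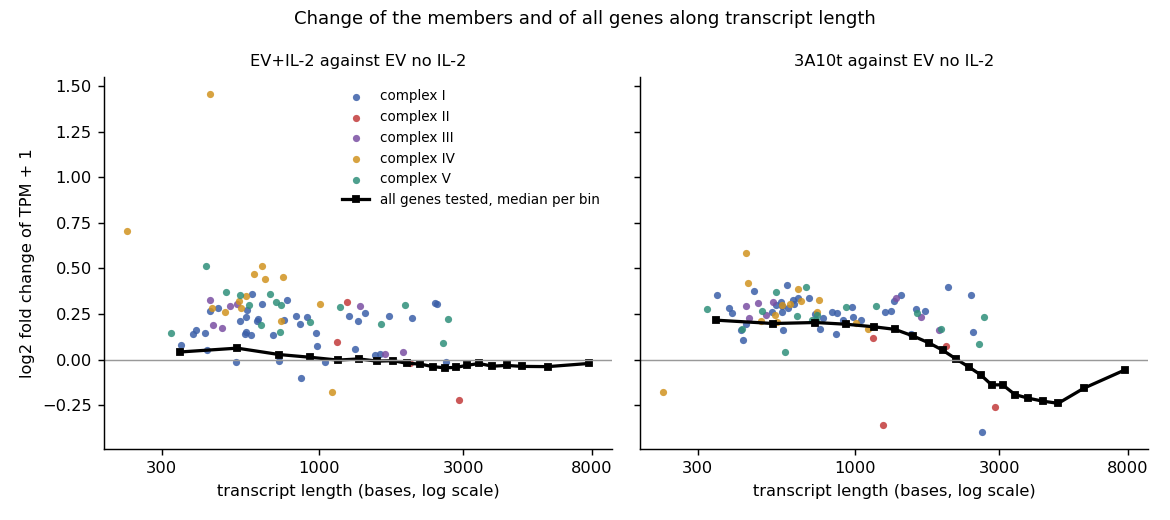
Log2 fold change of TPM + 1 against transcript length (log axis) for the members with a length, coloured by complex, and the median of all genes tested in 20 bins of length (black). With soluble IL-2 the members lie above a nearly flat line, and in 3A10t the line itself runs from above 0 for short to below 0 for long transcripts and most members lie near or above it.

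The genes with a value below 0 in 3A10t were Ndufs1, Sdhd, Sdha and the pseudogene symbol Cox6c2. Ndufs1, the largest core subunit of complex I, had 92.2, 97.7 and 94 TPM in EV no IL-2 and 101, 55.9 and 65.1 TPM in 3A10t, so that replicate 1 was the highest and replicates 2 and 3 the lowest of these 6 libraries (log2 fold change −0.40, SE 0.17, limma adjusted p = 0.175). Sdha had 283, 182 and 239 TPM in 3A10t, within the EV no IL-2 range in replicate 1 and below it in the other libraries (log2 fold change −0.26, limma adjusted p = 0.245). The annotated lengths of Ndufs1 and Sdha are 2626 and 2900 bases. The other 5 members with an annotated length over 2000 bases (Atp5a1, Atp5g1, Ndufa10, Ndufab1 and Ndufb2) had values above 0. Which of their transcripts were expressed was not measured, so no conclusion on length is drawn from them.

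Sdhd had 165, 146 and 153 TPM in 3A10t, all 3 below every EV no IL-2 library, the only member of which this held (12.1% of all genes). The log2 fold change was −0.36 (SE 0.09, limma adjusted p = 0.07), and with the replicate number as a block it was called (adjusted p = 0.045), so that 1 gene was then called lower (2.07% of all genes). With TPM as deposited, a quantile normalization or without 3A10t replicate 1 it was called as well, and with the length correction its value was −0.50 (adjusted p = 0.059). The other subunits of complex II, Sdhb and Sdhc, differed by 0.12 and 0.07.

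**Figure D4:**
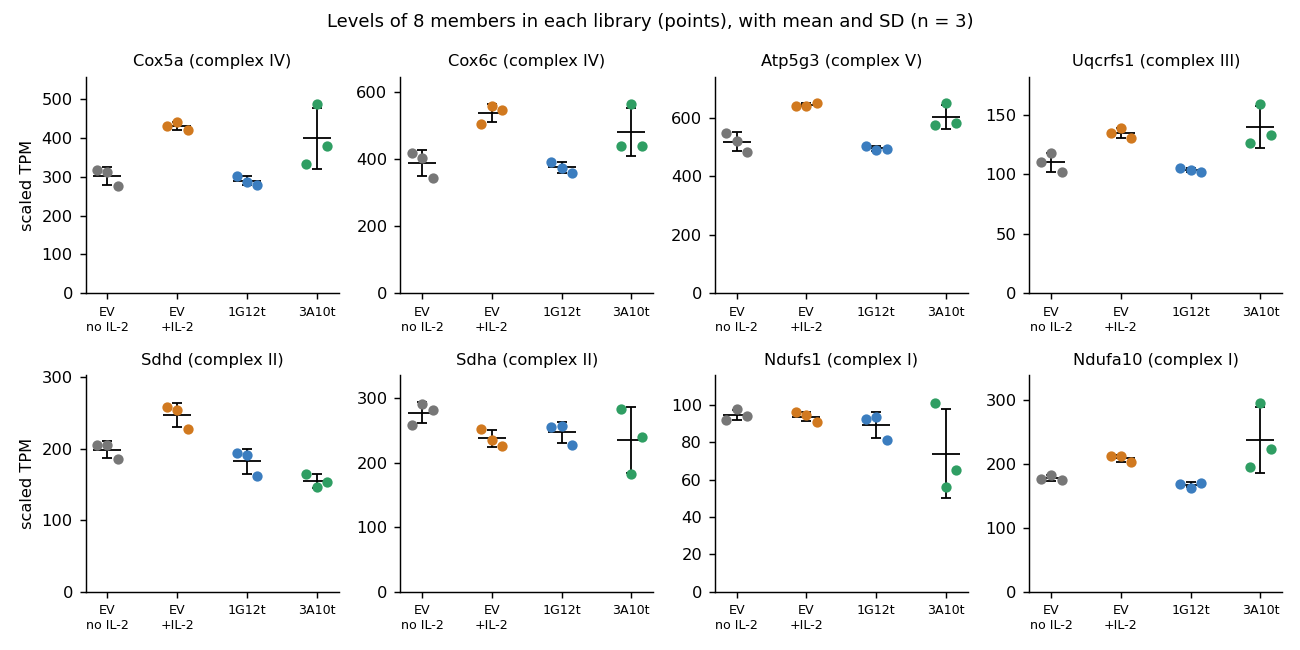
Scaled TPM of 8 genes in each of the 12 libraries, with the mean and SD of each group (n = 3) in black. Cox5a, Cox6c, Atp5g3 and Uqcrfs1 are higher in EV+IL-2 than in EV no IL-2, Sdhd is highest in EV+IL-2 and lowest in 3A10t, and the 3A10t libraries of Sdha, Ndufs1 and Ndufa10 spread over a wide range.

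The calls in 3A10t depended on which of its libraries entered. Without replicate 1, 35 members were higher and 3 lower (Ndufs1, Sdha and Sdhd), where 7.91% of all genes were higher and 15.3% lower. Without replicate 2, 0 were called in either direction (0.114% of all genes higher and 0.201% lower), and the median fell to 0.12. Without replicate 3, 0 were called as well (0.1% and 0.127%). At shares this low, 0 calls do not show an absence of change.

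In 1G12t no member was called, and a slight downward shift lay within the spread of the control libraries. The median difference from the EV no IL-2 mean was −0.02, −0.08 and −0.07 in the 1G12t libraries. In the EV no IL-2 libraries it ran from −0.13 to 0.09. The members' median log2 difference from EV no IL-2 was −0.06, 15 of 83 genes lay above 0 against 48.1% of all genes, all 3 1G12t libraries lay above all 3 EV no IL-2 libraries in 0 genes (8.68% of all genes) and below them in 4 (7.8%), and the lowest limma adjusted p of a member was 0.711. Of all genes tested, 0.0133% were called higher and 0.00665% lower. At an unadjusted p under 0.05 the count of members was 0 in both directions, against 5.33% of all genes higher and 1.72% lower, by the study's rule it was 0 against 1.13% and 0.226%, and none of the 24 alternative fits called any. Cox5a had 302, 287 and 279 TPM, Uqcrh 404, 387 and 402 TPM and Sdhd 195, 191 and 162 TPM, each overlapping or adjoining the EV no IL-2 range. With a quantile normalization the median turned to 0.02, and with TPM as deposited it was −0.02, with 36 of 83 above 0.

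The tethers were also compared directly. In 3A10t against 1G12t the median log2 fold change of the members was 0.30, against −0.02 for all genes, 78 of 83 lay above 0 against 47.4%, and in 59 all 3 3A10t libraries lay above all 3 1G12t libraries, against 13.7% of all genes. With limma and Benjamini-Hochberg adjustment 4 genes were higher and 0 lower, where 1.3% of all genes were higher and 2.96% lower. At an unadjusted p under 0.05, 53 were higher and 1 lower (14.0% and 15.7% of all genes), and by the study's rule 22 were higher and 0 lower (5.28% and 7.06%).

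The genes called were Uqcrfs1 and the ATP synthase genes Atp5b, Atp5c1 and Atp5g3. Uqcrfs1, the Rieske iron-sulfur protein of complex III, had 106, 103 and 102 TPM in 1G12t and 127, 159 and 133 TPM in 3A10t, with no overlap (log2 fold change 0.42, SE 0.09, limma adjusted p = 0.0398). Atp5c1, the γ subunit that turns inside the catalytic head, had 278, 279.7 and 277 TPM in 1G12t, a very narrow range, and 336, 428 and 352 TPM in 3A10t (log2 fold change 0.41, SE 0.09, limma adjusted p = 0.0416). Atp5b had 899, 821 and 779 TPM and 977, 1031 and 1067 TPM, and differed from most members in that 3A10t replicate 2 was not its highest library (log2 fold change 0.30, limma adjusted p = 0.0466). Atp5g3 had 504, 488 and 493 TPM and 575, 649 and 582 TPM (log2 fold change 0.28, limma adjusted p = 0.0487).

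With the replicate number as a block 9 genes were higher (2.31% of all genes), 3 of the 4 among them and Atp5g3 not. The count was 55 without 3A10t replicate 1, with 1 lower (11.7% and 15.9% of all genes). It was 0 when any other single library was left out (between 0.0672% and 0.352% of all genes). The length correction left 2 (0.525% of all genes), Uqcrfs1 and Atp5c1, at a median of 0.15.

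Set directly against each other, 3A10t and EV+IL-2 differed in both directions by small amounts for most members. The median log2 fold change of 3A10t against EV+IL-2 was 0.03 and 51 of 83 lay above 0, against 49.1% of all genes. With limma and Benjamini-Hochberg adjustment 1 gene was higher and 2 were lower, where 10.3% of all genes were higher and 13.0% lower. At an unadjusted p under 0.05, 3 were higher and 6 lower (17.0% and 20.2% of all genes), by the study's rule 0 and 2 (9.64% and 12.5%), and all 3 3A10t libraries lay above all 3 EV+IL-2 libraries in 4 genes and below them in 5 (18.9% and 18.0%). These counts lie below the background shares. After the length correction 0 were higher and 19 lower, 9 of them in complex IV, with a median of −0.08 and 14.0% of all genes lower. The median was also below 0 without 3A10t replicate 2 (−0.11, with 18 of 82 above 0) and with TPM as deposited (−0.05, with 29 of 83 above 0), so the direction of this comparison was not settled.

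Sdhd differed most clearly. Its EV+IL-2 libraries had 259, 255 and 228 TPM and its 3A10t libraries 165, 146 and 153 TPM, a log2 fold change of −0.67 (SE 0.09, limma adjusted p = 0.000716), and it was called in all 24 alternative fits, with values from −0.80 to −0.63. Cox7a2l had 256, 250.1 and 249 TPM in EV+IL-2 and 299, 370.4 and 295 TPM in 3A10t, all higher (log2 fold change 0.34, limma adjusted p = 0.0495), and passed in 11 of the 24 alternatives. It was not called without EV no IL-2 replicates 1 or 2, any EV+IL-2 replicate, 1G12t replicates 1 or 2, or 3A10t replicates 2 or 3. Cox6c2, named after its values were seen, had 14.9, 13.6 and 19.8 TPM and 6.77, 11.7 and 6.8 TPM (log2 fold change −0.88, limma adjusted p = 0.018), and lost its call without EV+IL-2 replicate 3 or 3A10t replicate 3 and in a fit of only the 6 libraries compared (limma adjusted p = 0.0847).

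Genes that assemble or regulate the chain were examined beside the subunits. Of 52 assembly factors listed, 50 were tested, and with soluble IL-2 their median log2 fold change was −0.07, with 1 higher and 1 lower (8.17% and 5.14% of all genes). Cmc2, a complex IV assembly factor, rose by 0.74 and Sdhaf1, which helps insert iron-sulfur clusters into complex II, fell by 0.43 (limma adjusted p = 0.00659 and 0.0344). In 3A10t against EV no IL-2 the median was 0.13 and none was called in either direction, with 6 higher and 2 lower at an unadjusted p under 0.05 (10.9% and 15.1% of all genes). Against EV+IL-2, 7 assembly factors were higher in 3A10t and 2 lower, where 10.3% of all genes were higher and 13.0% lower. Sdhaf1 had the lowest adjusted p of them (log2 fold change 0.72, limma adjusted p = 0.00203), and the largest log2 fold change of a factor was 0.75.

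The electron carrier cytochrome c, Cycs, rose with soluble IL-2 by 0.40 (limma adjusted p = 0.0491), and cytochrome c1, Cyc1, differed by 0.12 (limma adjusted p = 0.562). Among 12 regulators tested of 13 listed, 1 was called higher and 1 lower with soluble IL-2 (8.17% and 5.14% of all genes). Myc, a transcription factor that drives cell growth, rose by 0.79. Nrf1, the factor whose letters were searched above, fell by 0.40 (limma adjusted p = 0.00493 and 0.0363). In 3A10t against EV no IL-2 the regulators had a median of −0.24, with 9 of 12 below 0, where 52.9% of all genes lay above 0. At an unadjusted p under 0.05, 0 were higher and 5 lower (10.9% and 15.1% of all genes). The coactivator gene Pprc1 fell by 0.70 (limma adjusted p = 0.0438), the only regulator called there (1.6% of all genes lower). All genes tested over 3000 bases had a median of −0.17 in this comparison. The part of transcript length in the values of the regulators and assembly factors was not tested. Ppargc1a, the coactivator best known for mitochondrial biogenesis, was below the level tested in these cells. Of the 13 protein-coding genes of mitochondrial DNA, none was called against EV no IL-2 in any group. Among all genes tested, 8.17% were called higher with soluble IL-2, 0.452% with the 3A10 tether and 0.0133% with 1G12. Against such shares, 0 of 13 does not show an absence of change. In 3A10t 11 of the 13 lay above 0 (52.9% of all genes). In 7 all 3 3A10t libraries lay above all 3 EV no IL-2 libraries (13.3%). The number above 0 was 7 with soluble IL-2 and 2 in 1G12t. Against 1G12t, 2 were called higher in 3A10t (1.3% of all genes), mt-Nd1 by 0.37 and mt-Cytb by 0.44 (limma adjusted p = 0.0437 and 0.0451).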

How the data were processed

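Sample groups and replicate numbers were taken from the labels. The deposited values are TPM per gene and library, which, per the labels and the study's methods, the authors made with cutadapt 1.18, STAR 2.5.3 and RSEM 1.3.0 on mm10 with a GENCODE annotation, and the authors' own tests used DESeq2 1.26. TPM sum to one total in every library, so they keep no depth, and a rise of abundant genes lowers all others, which the rescaling by median-of-ratios offsets for most genes. Oligo-dT priming, cDNA amplification and fragmentation precede the counting, and such steps can act on transcripts by their length.

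TPM were divided by median-of-ratios factors, 15043 genes that averaged 1 TPM or more were kept, and log2(scaled TPM + 1) was fitted with limma 3.58.1 in R 4.3.3 (eBayes with a trend, 4 group means, 12 libraries, Benjamini-Hochberg adjustment over all genes). The fit was tested on simulated data. Lengths and gene types came from GENCODE M21 on GRCm38, which held 88 of the 89 (all but Atp5md), and promoters from RefSeq GRCm38.p6. A length was the median over the basic transcripts of the gene. The NRF1 letters were cut by 1 base after a first search with a longer form, which fewer promoters held. The length correction removed a lowess trend on length with a span of 0.3 from each library. The alternatives, 23 planned and 1 added after the data were seen (protein-coding genes only), were other pseudocounts (0.1 and 5), filters and normalizations, only the 6 libraries compared, the replicate block, the length correction alone and with the block, eBayes without a trend, and each library left out in turn. The replicate number marks a shared sort by the labels. Deviations from the group means correlated over the 18 pairs with the same number with a mean r of 0.041, from −0.11 to 0.15, and with a mean of −0.020 over pairs with different numbers.

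The genes, lists and tests were chosen with earlier results of these data known. Genes named were the 3 highest of each complex, the strongest call of each complex in each direction and comparison, Cox5a, Ndufa10 and Uqcrh, paralog sets, all of complex II and core subunits of complex I, of which 1 result is not reported here. Others (Cox6c, Atp5md, Ndufs5, Uqcrc2, Cox6c2, the members over 2000 bases and the list genes that were called) were named after their values were seen. Promoters had been planned for the strongest calls. Cox5a, Uqcrh and Cox6a1 were shown in place of Cox6b2, Uqcrfs1 and Atp5c1. Python 3.11.15 and matplotlib 3.10.9 drew the figures.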

Additional observations from a re-analysis of the deposited data

Results flagged for a closer look

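These 3 results were singled out because they were the members called in 3A10t against EV+IL-2. That comparison tests whether the responses to the 3A10 tether and to soluble IL-2 differed. Of 83 members 1 was higher and 2 were lower, where 10.3% of all genes were higher and 13.0% lower. The count of 3 thus lies below the background share. For Sdhd the difference was −0.67 on the log2 scale, with 0.31 in EV+IL-2 and −0.36 in 3A10t against EV no IL-2. For Cox6c2, a processed pseudogene symbol, it was −0.88, with 0.71 and −0.18. For Cox7a2l it was 0.34, with −0.18 and 0.17. The limma adjusted p values, by which the 3 were chosen, were 0.000716, 0.018 and 0.0495. All 3 libraries of one group lay beyond all 3 of the other for each gene. Of all genes, 18.9% had all 3A10t libraries above and 18.0% below those of EV+IL-2.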

How the results depend on the processing

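Shares of all genes called in the same direction stand in parentheses. The members' median stayed above 0 in all alternatives for EV+IL-2 and 3A10t against EV no IL-2 and for 3A10t against 1G12t, while its size and the counts of genes called varied. For EV+IL-2 against EV no IL-2, 10 were called higher (8.17%), 19 with TPM as deposited (7.64%), 19 with only the 6 libraries compared (11.5%), 25 with the length correction (10.4%), and between 1 and 36 with a library left out (5.49% to 10.8%). The quantile normalization gave 1 lower (5.68%) and a median of 0.13. For 3A10t against EV no IL-2, protein-coding genes alone (chosen after seeing the data) gave 2 higher (1.47%). TPM as deposited and the quantile normalization each gave 1 lower (2.96% and 0.844%) with medians of 0.11 and 0.13 in place of 0.26. Leaving out a library gave 0 to 35 higher (0.0466% to 7.91%) and 0 to 3 lower (0.12% to 15.3%), with medians from 0.12 to 0.36. For 3A10t against 1G12t, 4 were called higher (1.3%), 0 with no filter, with only the 6 libraries compared or without a trend (0.0976%, 0.0532% and 0.326%), 15 at a mean TPM of at least 5 (4.97%), 2 with TPM as deposited (0.638%), 1 with the quantile normalization (1.24%), 2 with the length correction (0.525%), 18 with protein-coding genes alone (5.19%), and 0 to 55 with a library left out (0.0672% to 11.7%). TPM as deposited and the quantile normalization each gave 1 lower there (8.64% and 1.95%), with medians of 0.11 and 0.093. Leaving out a library gave 0 to 1 lower (0.24% to 15.9%). For 3A10t against EV+IL-2, 1 was called higher (10.3%), 0 with a pseudocount of 5, the 6 libraries, the length correction or no trend (9.77%, 6.12%, 11.2% and 10.5%), 3 with no filter (27.2%), 2 with TPM as deposited (8.23%), 4 with the quantile normalization (11.3%), 2 with protein-coding genes alone (14.0%) and 0 to 7 with a library left out (5.36% to 13.8%). The count of 2 lower (13.0%) became 8 with TPM as deposited (14.9%), 4 with the quantile normalization (10.4%), 19 with the length correction (14.0%), 1 with protein-coding genes alone (17.2%) and 1 to 7 with a library left out (7.54% to 19.9%). The cause of these shifts was not tested.

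With the replicate number as a block, 3A10t against EV no IL-2 gave 1 lower (2.07%), 3A10t against 1G12t gave 9 higher (2.31%), and EV+IL-2 against EV no IL-2 gave 12 higher (8.28%). The block with the length correction gave 29 higher for EV+IL-2 against EV no IL-2 (10.5%), 1 lower for 3A10t against EV no IL-2 (0.969%), 2 higher for 3A10t against 1G12t (0.66%) and 20 lower for 3A10t against EV+IL-2 (14.8%). Of the 26 single-gene results, 3 values changed sign, all small and in 1G12t against EV no IL-2. Cox5a was 0.0082 with the quantile normalization, and Uqcrh was 0.0082 with TPM as deposited and 0.0346 with the quantile normalization. TPM keep no read depth, so the precision of low genes such as Cox6b2 and Cox6c2 is known only from 3 libraries a group.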

Other observations

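Ndufb1-ps, which the rule on names left out, is annotated as a long noncoding RNA and was abundant, with 103, 89.6 and 83.0 TPM in EV no IL-2, 111, 119 and 123 TPM in EV+IL-2, 91.8, 93.2 and 98.4 TPM in 1G12t, and 84.3, 93.5 and 96.4 TPM in 3A10t. The EV+IL-2 libraries lay above all others. Of the other 7 names left out, Atp5k-ps2 averaged 3.75 TPM and 6 were under 1 TPM. Ndufb4c, a processed pseudogene symbol among the members, averaged 246 TPM over the 12 libraries, above its parent gene Ndufb4 at 54.2 TPM, and the split of reads between the pair is uncertain. Cox7b2, a testis form of Cox7b, ranged from 0.0916 to 2.32 TPM and fell below the level tested.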
